A study of Mus musculus with 24 samples.

Results

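Cyclic nucleotide phosphodiesterases and adenylyl cyclases were examined in the nuclear transcriptome of postnatal mouse heart muscle cells (cardiomyocytes, CMs). The 10 genes were chosen by name: 8 phosphodiesterases (Pde1c, Pde3a, Pde4a, Pde4b, Pde4d, Pde5a, Pde7a and Pde8a) and 2 adenylyl cyclases (Adcy5 and Adcy6). They were found by matching the Ensembl identifiers of the count tables to mouse gene symbols, and they made up 10 of 56923 identifiers. All 10 were among the 20368 genes that had enough reads to be tested.

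Ventricles of C57BL/6N mice, used without regard to sex, were collected at postnatal day 1, 7 and 14 (P1, P7 and P14). CM nuclei were sorted by staining for the protein PCM1, and 3′ end tags of the nuclear RNA were sequenced (QuantSeq FWD, low-input form, single-end reads). Controls were XMLC2(-)Casp2(fl/fl) animals, which carry floxed Casp2 alleles but no Cre recombinase and have the genotype label WT. Casp2-depleted CMs came from XMLC2(+)Casp2(fl/fl) animals, which carry the same floxed alleles together with Cre under the XMLC2 promoter and have the genotype label Casp2 KO. Each replicate was a pool of ventricles, from 15 hearts at P1, 6 hearts at P7 and 2 hearts at P14, so the spread between replicates is a spread between pools. Of 24 libraries, 21 entered the comparisons: control replicates 2 to 4 and Casp2-depleted replicates 1 to 4 at P1, replicates 1 to 4 of both genotypes at P7, and control replicates 1, 2 and 4 and Casp2-depleted replicates 2 to 4 at P14. Comparisons between days addressed how CM transcripts change during early postnatal maturation, and comparisons between genotypes addressed what loss of the protease caspase-2 does to them.

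Reads on genes numbered 891817 to 2924097 per library over the 21 libraries (median 1452114), and 7628 to 17770 genes had a read. Depth was unequal between days: the 3 P14 control libraries held 1278961, 1026886 and 891817 reads, against 2283962, 2420016, 1920330 and 1635688 reads in P7 controls. The off-gene read share, the percentage of counted reads that fell on no gene, was 63.7% to 75.2% in P14 controls and 72.2% to 76.1% in P14 Casp2-depleted libraries, against 36.7% to 54.7% and 34.3% to 64.3% at P7. At P1 it was 60.7% to 73.9% in controls and 36.8% to 70.6% in Casp2-depleted libraries. A count of 0 allows up to 3 reads, which is 1.03 to 3.36 CPM (read counts scaled to a common library total) depending on the library, and this limit covers counting error only. Values below are CPM scaled by the trimmed mean of M-values (TMM). Day and genotype effects are log2 fold changes from the edgeR quasi-likelihood F-test fitted over all 20368 genes and all 21 libraries, with Benjamini-Hochberg adjusted p. Their standard error (SE) was derived as the absolute log2 fold change divided by the square root of F, and is approximate. A gene was called when its adjusted p was below 0.05 and its absolute log2 fold change was above 1.

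Casp2, the targeted gene, could not check the genotypes at this depth. It had 17 reads in all 24 libraries together, with 5, 3, 1 and 0 reads in P7 control replicates 1 to 4, 5, 3, 0 and 0 reads in P7 Casp2-depleted replicates 1 to 4, and 0 reads in every P1 and P14 library. A 3′ tag may also lie outside the deleted part of the gene, in which case it checks nothing.

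The labelled cell type was checked against 12 cardiomyocyte markers, and all 12 were read. Their summed level ran from 9747 to 156336 CPM per library with a median of 48801 CPM, and the most abundant was Ttn, which encodes the giant sarcomere protein titin, at 1805 to 60449 CPM. Markers of other cells were read at far lower sums: 283 to 891 CPM for 10 endothelial markers, 79.6 to 765 CPM for 10 mural and smooth muscle markers, 62.8 to 368 CPM for 10 fibroblast markers and 41.6 to 313 CPM for 10 macrophage and leukocyte markers. The most abundant genes of these lists were Flt1, Abcc9, Lum and Cx3cr1, and the macrophage genes Cd68 and Itgam had 0 reads. Abcc9 had a median of 233 CPM, beside a median of 392 CPM for the whole mural and smooth muscle sum, which thus rests much on 1 gene. Neural and Schwann cell markers summed to 19.9 to 191 CPM with Foxd3 at 0 reads, and erythroid markers to 0 to 122 CPM with Hemgn first and Klf1 at 0 reads.

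Adenylyl cyclases make cyclic AMP (cAMP) from ATP when receptors such as the β1-adrenergic receptor activate the stimulatory G protein, and cAMP in turn activates protein kinase A (PKA), which phosphorylates calcium channels, calcium release channels and sarcomere proteins to make the heartbeat stronger and faster. Phosphodiesterases end the signal by hydrolysing cAMP, cyclic GMP (cGMP) or both, and because their isoforms are anchored in different places they confine the signal within the cell. In heart muscle, AC5 and AC6 are the main cyclases, PDE3 and PDE4 account for much of the breakdown of cAMP, and PDE5 acts on cGMP.

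Levels were compared between genes as CPM per kb of gene body, since reads were counted over whole genes, introns included. Across the 21 libraries the order of mean CPM per kb of gene body was Adcy6 (4.40 ± 3.96, SD), Pde4d (2.40 ± 1.14), Pde1c (1.41 ± 0.568), Pde4b (1.30 ± 1.17), Pde4a (1.19 ± 0.477), Pde7a (1.13 ± 0.736), Adcy5 (0.694 ± 0.419), Pde8a (0.692 ± 0.425), Pde5a (0.565 ± 0.483) and Pde3a (0.509 ± 0.418). No neighbours in this order were separate across the 21 libraries. Within groups, the libraries of neighbours were separate at 2 places: Pde4d above Pde1c in P14 controls (3.43 ± 0.388 against 1.35 ± 0.198 CPM per kb of gene body) and Adcy6 above Pde4d in P7 Casp2-depleted CMs (6.61 ± 3.20 against 2.46 ± 0.719). Adcy6 was first at P1 and P7 in both genotypes, with 6.28 ± 2.94 CPM per kb of gene body in P7 controls, where it was above Pde4d in 4 of 4 libraries. At P14 Pde4d was first in both genotypes and Adcy6 took place 8 in controls (0.473 ± 0.281) and place 4 in Casp2-depleted CMs (1.10 ± 1.31). The order depended on the length used: per kb of exons Pde4d was first at 248.9 CPM per kb, ahead of Pde4b (57.2) and Pde1c (39.0). Adcy6, the shortest of the 10 genes, took place 6 (12.7). Reads were 3′ end tags, and by CPM with no length term Pde4d was also first, at 3611 CPM, ahead of Pde1c (822) and Pde4b (676), with Adcy6 in place 7 (88.4). The first place of Adcy6 thus rests on the division by gene body length.

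**Figure D1:**
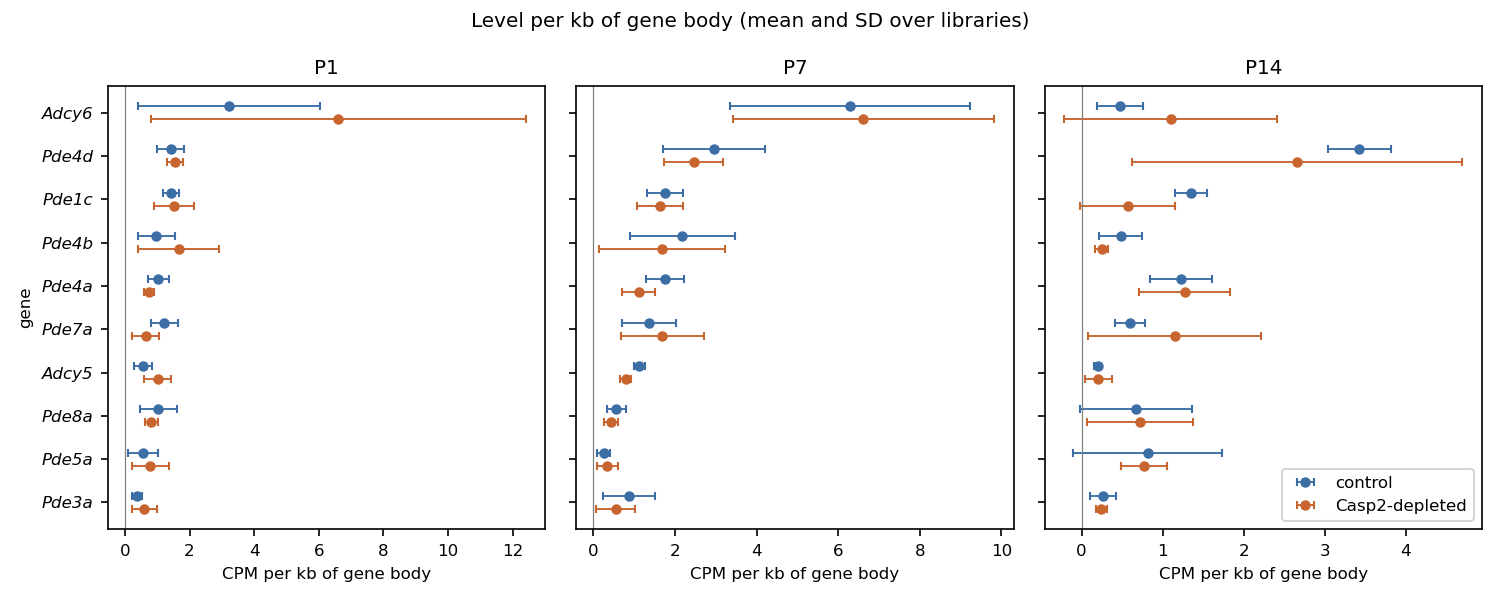
Mean level of each of the 10 genes in CPM per kb of gene body (horizontal axis) at P1, P7 and P14, with control libraries in blue and Casp2-depleted libraries in orange, and error bars of 1 SD over 3 or 4 libraries. Adcy6 lay at 6.28 in P7 controls and at 0.473 in P14 controls, while Pde4d lay at 2.96 and 3.43.

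Reads behind these levels ranged from 2013 for Pde4a to 114126 for Pde4d over the 21 libraries. Some members overlap other genes, and because the strand setting of the counting was not given in the sources used here, reads of a member and of a gene on the opposite strand cannot be told apart. This touches Pde5a most, whose 2299 reads stand beside 801 counted for 4933405D12Rik on the opposite strand, and Pde7a, whose 3209 reads stand beside 569 for Gm16093.

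Members were called in 3 of the 12 comparisons, and each called member was lower at P14. In control CMs 2 of 10 members were called from P7 to P14 (Pde4b and Adcy6, both lower), where 1.93% of all genes were called, 2 of them higher and 392 lower. In Casp2-depleted CMs over the same interval 1 of 10 was called (Pde4b), against 3.01% of all genes, 2 higher and 611 lower. From P1 to P14 in Casp2-depleted CMs 1 of 10 was called (Pde4b), against 2.17% of all genes, 9 higher and 433 lower. Counts of 1 or 2 among 10 genes chosen by name are too small to set the members apart from the other genes.

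The median of all genes was itself below 0 in these comparisons, at a log2 fold change of −0.75 from P7 to P14 in controls, −0.61 in Casp2-depleted CMs and −0.41 from P1 to P14 in Casp2-depleted CMs. With library totals in place of TMM the same medians were −0.002, 0 and 0, so edgeR changes of single members from day to day are also given relative to the median of all genes. Ranges, list medians and values of other settings are given as fitted. The member medians were −0.85, −0.86 and −0.74, and in each of these comparisons 5 members lay above the median of all genes and 5 below. Under library totals the split of calls from P7 to P14 in controls was 1 member higher (Pde4d) and 0 lower, in place of 0 higher and 2 lower.

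In 3 other comparisons of days the edgeR test called 0 members, and the median of all genes was 0.21 for P7 over P1 in controls, −0.28 for P14 over P1 in controls and 0.07 for P7 over P1 in Casp2-depleted CMs. From P7 over P1 in controls, 0.0491% of all genes were called, and 2 members and 1142 of 20368 genes had an unadjusted p below 0.05. DESeq2 called 0 members and 88 genes, and limma-voom 0 members and 49 (TMM) or 93 genes (quantile normalization). From P14 over P1 in controls, 0.363% of all genes were called, and 2 members and 2071 of 20368 genes had an unadjusted p below 0.05. DESeq2 called 1 member (Pde4d) among 521 genes, and limma-voom 0 members and 205 (TMM) or 126 genes (quantile normalization). From P7 over P1 in Casp2-depleted CMs, 0.0245% of all genes were called, and 1 member and 1415 of 20368 genes had an unadjusted p below 0.05. DESeq2 called 0 members and 46 genes, and limma-voom 0 members and 8 (TMM) or 12 genes (quantile normalization). Counted by libraries, the 2 groups did not overlap for 2, 5 and 3 members in controls (P7 over P1, P14 over P7 and P14 over P1) and for 1, 3 and 2 members in Casp2-depleted CMs. Of all genes tested, 9.76%, 15.4% and 7.93% did not overlap in controls and 1.95%, 13.2% and 6.79% in Casp2-depleted CMs.

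**Figure D2:**
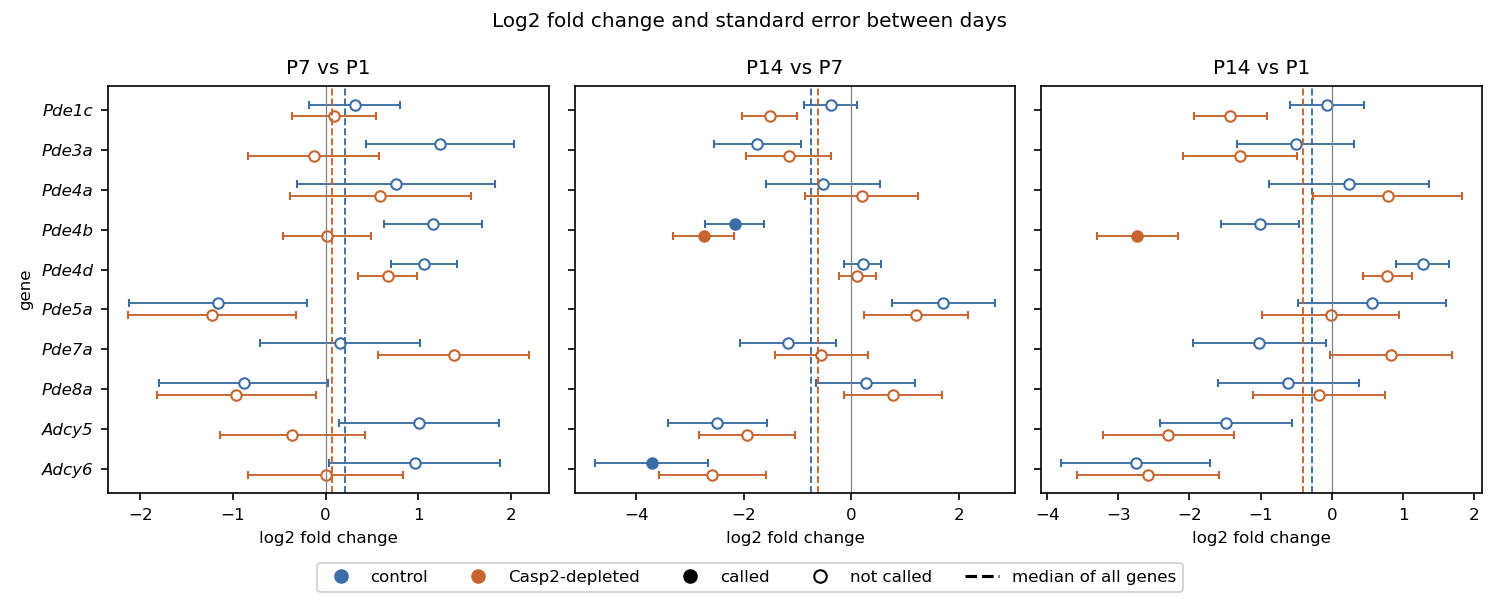
Log2 fold change of each member between days (horizontal axis) with error bars of 1 SE from edgeR, for P7 over P1, P14 over P7 and P14 over P1, in control (blue) and Casp2-depleted CMs (orange). Filled points were called, and dashed lines mark the median of all genes. The 4 called values, Pde4b at −2.17, −2.75 and −2.73 and Adcy6 at −3.72, lie left of the median of all genes.

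Adcy6 (ENSMUSG00000022994, chr15:98487854-98507957, minus strand, GRCm39) encodes a cyclase that is activated by the stimulatory G protein and inhibited by calcium. Its level in P7 control replicates 1 to 4 was 90.2, 205, 136 and 73.3 CPM, and in P14 control replicates 1, 2 and 4 it was 12.7, 2.99 and 12.9 CPM. Every P14 control library was below every P7 control library, the lowest of which held 73.3 CPM. The mean fell from 126 ± 59.1 CPM (SD, n = 4) to 9.51 ± 5.65 CPM (SD, n = 3), with a log2 fold change of −3.72 ± 1.06 (SE) with an edgeR adjusted p of 0.0295, or −2.97 relative to the median of all genes. P1 control replicates 2 to 4 held 1.2, 83.6 and 110.1 CPM, so that replicate 2 lay with the P14 libraries and the other 2 with those of P7. This call was near its threshold: leaving out P7 control replicate 2 gave −3.29 ± 1.12, adjusted p 0.162, and leaving out P14 control replicate 2 gave −3.13 ± 1.18, adjusted p 0.156. It was also lost, at adjusted p 0.053 to 0.075, without P7 control replicate 1 or 3, P14 control replicate 4, P1 Casp2-depleted replicate 1 or 4, or P7 Casp2-depleted replicate 1 or 2, and under 10 of 12 other settings (adjusted p 0.0203 to 0.606 over the 12). With the off-gene read share as a term the log2 fold change was −2.13 ± 1.12 (edgeR adjusted p 0.606). With library totals it was −2.87 ± 1.11 (edgeR adjusted p 0.258). The off-gene read share was higher in every P14 library than in every P7 library of its genotype. A fit with that share as a term therefore does not tell day and share apart, for Adcy6 or for the genes below.

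In Casp2-depleted CMs, Adcy6 stood at 131, 225, 91.2 and 84.8 CPM in P7 replicates 1 to 4 and at 51.3, 15.1 and 0 CPM in P14 replicates 2 to 4. Again no P14 library reached the P7 libraries, and the highest P14 library, replicate 2, held 51.3 CPM. The log2 fold change of −2.58 ± 0.99 was not called (edgeR adjusted p 0.176, −1.97 relative to all genes), while without P14 Casp2-depleted replicate 2 it was −4.12 ± 1.27, adjusted p 0.0386. The change from P7 to P14 was not shown to differ between genotypes, with an interaction of 1.13 ± 1.30 (log2, SE, edgeR adjusted p 1.00). The direction of this interaction turned with the scaling, from −0.72 to 1.13 over TMM, median-ratio factors, library totals and both limma-voom fits. P1 Casp2-depleted replicates 1 to 4 held 114, 37.8, 77.6 and 301 CPM, the widest range of any group, and the change from P1 to P14 was −2.58 ± 0.99 (edgeR adjusted p 0.186, −2.17 relative to all genes) with groups that overlapped. Without P14 Casp2-depleted replicate 2 it became −4.12 ± 1.27, adjusted p 0.0468.

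Adcy5 (ENSMUSG00000022840, chr16:34975023-35126113, plus strand) encodes the other main cardiac cyclase, also inhibited by calcium. P7 control replicates 1 to 4 held 164, 192, 144 and 177 CPM and P14 control replicates 1, 2 and 4 held 38.1, 24.7 and 27.2 CPM. The P7 values lay close together and every one was several times above every P14 value. In Casp2-depleted CMs the values were 137, 111, 93.3 and 135 CPM at P7 and 33.0, 55.3 and 4.57 CPM at P14, again without overlap. Neither change was called: the log2 fold change was −2.49 ± 0.93 in controls (edgeR adjusted p 0.172, −1.75 relative to all genes) and −1.94 ± 0.90 in Casp2-depleted CMs (adjusted p 0.301, −1.33 relative to all genes). DESeq2 called it in controls (−2.22 ± 0.61, adjusted p 0.00781) and, from P1 to P14, in Casp2-depleted CMs (−2.13 ± 0.61, adjusted p 0.0100), where edgeR gave −2.30 ± 0.92 (−1.89 relative to all genes) with an adjusted p of 0.210 and no overlap. P1 libraries held 39.0, 88.5 and 125 CPM in controls and 194, 106, 94.5 and 217 CPM in Casp2-depleted CMs, and from P1 to P7 the control groups did not overlap (1.01 ± 0.87, edgeR adjusted p 0.864, 0.79 relative to all genes).

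Pde4b (ENSMUSG00000028525, chr4:101944740-102465716, plus strand) encodes a phosphodiesterase specific for cAMP and was the member with the smallest adjusted p in each comparison that had a call. P7 control replicates 1 to 4 held 2026, 1260.3, 773 and 487 CPM, and P14 control replicates 1, 2 and 4 held 402, 225 and 130.2 CPM. All P14 libraries were below all P7 libraries, but the gap between P7 replicate 4 and P14 replicate 1 was small beside the spread within P7. The mean fell from 1137 ± 673 CPM (SD, n = 4) to 253 ± 138 CPM (SD, n = 3), with a log2 fold change of −2.17 ± 0.55 (edgeR adjusted p 0.00855) or −1.42 relative to the median of all genes. The call was lost without P7 control replicate 1 (−1.64 ± 0.57, adjusted p 0.155), P14 control replicate 2 (−1.99 ± 0.62, adjusted p 0.0636) or P14 control replicate 4 (−1.86 ± 0.63, adjusted p 0.163). It was also lost under 7 of 12 other settings (adjusted p 0.00183 to 0.995 over the 12): library totals (0.155), filterByExpr (0.0644), all 24 libraries (0.279), only the groups compared (0.0928), limma-voom with TMM (0.243) or quantile normalization (0.434), and the off-gene read share as a term (−0.22 ± 0.51, adjusted p 0.995).

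In Casp2-depleted CMs, P7 replicates 1 to 4 held 2072, 485, 508 and 433 CPM of Pde4b and P14 replicates 2 to 4 held 139, 167 and 84.9 CPM. P7 replicate 1 stood far above the other 3, and all 4 lay above every P14 library. The mean fell from 875 ± 799 CPM (SD, n = 4) to 130.4 ± 41.8 CPM (SD, n = 3), with a log2 fold change of −2.75 ± 0.57 (edgeR adjusted p 0.000181, −2.13 relative to all genes). Without P7 Casp2-depleted replicate 1 it was −1.76 ± 0.56, adjusted p 0.0829, and the call was also lost under 3 of 12 other settings, limma-voom with TMM (adjusted p 0.292) or quantile normalization (0.316) and the off-gene read share as a term (−0.55 ± 0.51, adjusted p 0.890; adjusted p 0.000134 to 0.89 over the 12). The interaction of genotype with day was −0.58 ± 0.73 (edgeR adjusted p 1.00), so the change was not shown to differ between genotypes.

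At P1 the Casp2-depleted libraries fell far apart, with 1338, 360.2, 259 and 1508 CPM of Pde4b in replicates 1 to 4. Replicates 1 and 4 were several times higher than replicates 2 and 3, yet all were above the 3 P14 libraries. The log2 fold change from P1 to P14 was −2.73 ± 0.57 (edgeR adjusted p 0.000326, −2.32 relative to all genes), and the call was kept in each of the 21 fits that left out 1 library. It was lost under 4 of 12 other settings: with all 24 libraries (−2.64 ± 0.73, adjusted p 0.0564), with limma-voom after TMM or quantile normalization (adjusted p 0.380 and 0.280) and with the off-gene read share as a term (−0.91 ± 0.47, adjusted p 0.513; adjusted p 0.00024 to 0.513 over the 12). P1 control replicates 2 to 4 held 216, 499.9 and 810.2 CPM, which overlapped both P7 (1.16 ± 0.53 from P1 to P7, edgeR adjusted p 0.658, 0.95 relative to all genes) and P14 controls (−1.01 ± 0.55 from P1 to P14, adjusted p 0.461, −0.73 relative to all genes).

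**Figure D3:**
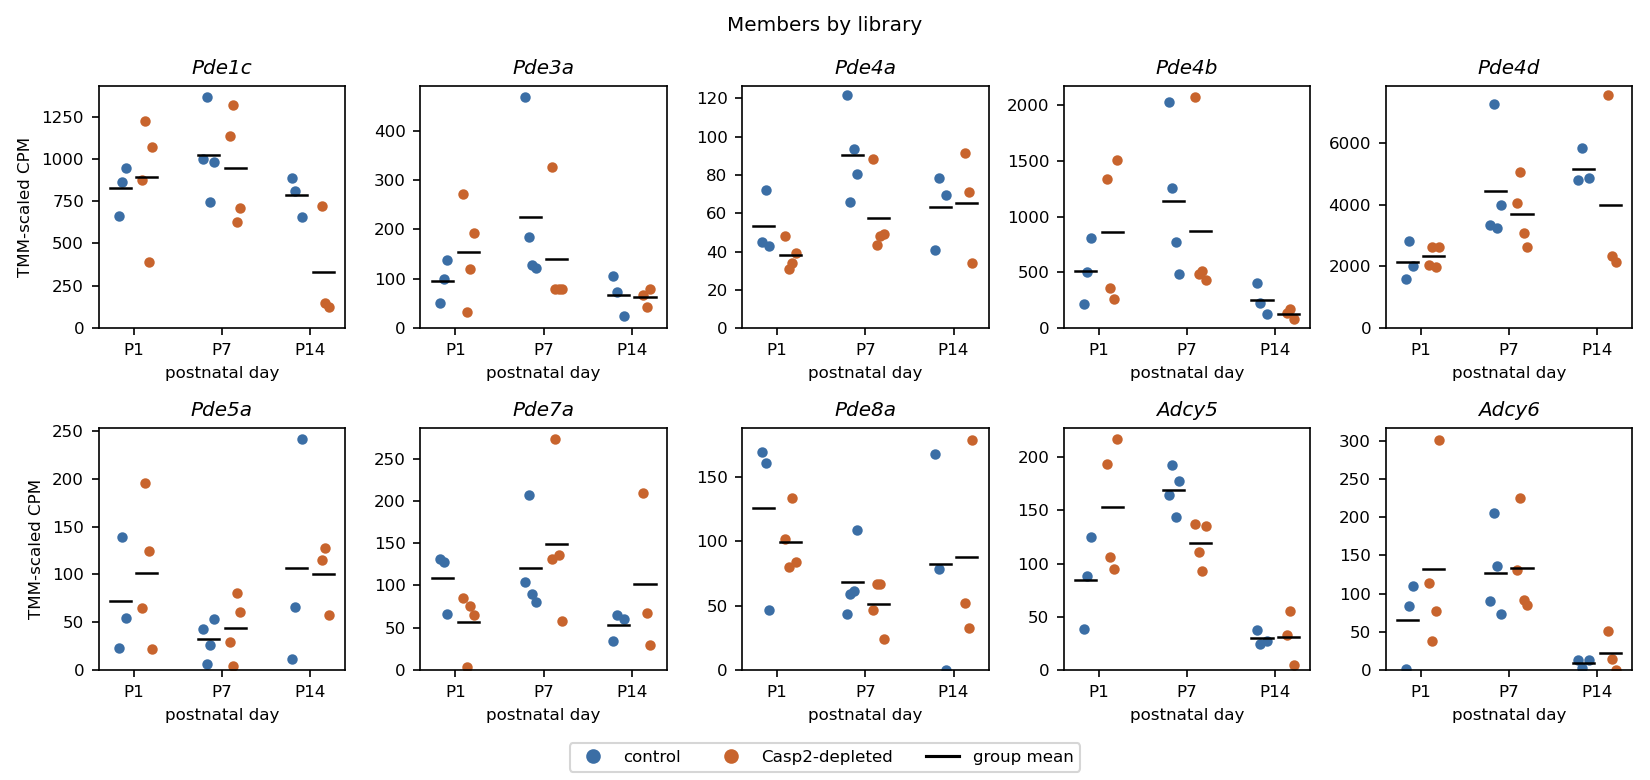
TMM-scaled CPM of each member (vertical axis, 1 panel a gene) by postnatal day, with a point for each of the 21 libraries, control in blue and Casp2-depleted in orange, and a black bar at the group mean. In the Pde4b panel the 3 P14 control libraries sit between 130.2 and 402 CPM, below the 4 P7 control libraries at 487 to 2026 CPM.

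Promoter windows of the members were read for the cAMP response element, since Pde4b was called in both genotypes from P7 to P14 and Pde4d had the most reads. Adcy5 was not called by edgeR, but its P14 libraries lay below the P7 libraries of their genotype. RefSeq windows on build GRCm38.p6, from 250 bases before to 50 bases after a start, were held for 7 of 10 members, 14 windows in all. Pde3a, Pde7a and Adcy6 had none and were not searched. The short form TGACG was searched on both strands and was found in 3 of the 14 windows (1 each of Pde4a, Pde4b and Pde8a), against 20.8% of all 32851 windows. The long form, TGACG followed directly by TCA, which contains the short one, was in 0 of the 14 windows against 1.79% of all windows. A match is a description of letters only. Shown are the Pde4b window that held the short form (chr4:102421305-102421604, plus strand), the only Pde4d window (chr13:108653927-108654226, plus strand) and the only Adcy5 window (chr16:35154614-35154913, plus strand), with capitals marking the motif, which in Pde4b reads as its reverse complement CGTCA.
Pde4b: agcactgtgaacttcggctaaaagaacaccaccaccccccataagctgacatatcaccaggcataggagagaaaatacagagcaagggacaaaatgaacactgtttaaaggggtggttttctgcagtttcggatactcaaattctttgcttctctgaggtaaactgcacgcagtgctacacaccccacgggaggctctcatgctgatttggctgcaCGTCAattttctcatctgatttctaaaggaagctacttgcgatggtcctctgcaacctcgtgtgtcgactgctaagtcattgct
Pde4d: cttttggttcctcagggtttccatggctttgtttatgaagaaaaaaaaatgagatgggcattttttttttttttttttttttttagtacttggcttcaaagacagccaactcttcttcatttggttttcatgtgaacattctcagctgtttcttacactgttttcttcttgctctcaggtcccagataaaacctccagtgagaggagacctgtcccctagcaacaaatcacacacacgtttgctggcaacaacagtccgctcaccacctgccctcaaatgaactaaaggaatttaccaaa
Adcy5: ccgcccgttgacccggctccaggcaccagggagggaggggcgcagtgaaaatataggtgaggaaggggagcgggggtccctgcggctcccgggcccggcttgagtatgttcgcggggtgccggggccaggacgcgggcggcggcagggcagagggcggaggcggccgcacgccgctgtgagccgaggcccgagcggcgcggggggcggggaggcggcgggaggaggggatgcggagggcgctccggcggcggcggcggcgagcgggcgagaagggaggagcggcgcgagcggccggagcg

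Pde4d (ENSMUSG00000021699, chr13:108586482-110092497, plus strand) encodes another cAMP-specific phosphodiesterase, found with the calcium release channel, and had the highest CPM of the members. P1 control replicates 2 to 4 held 1578, 2806 and 2022 CPM, P7 control replicates 1 to 4 held 3331, 7249.9, 3229.6 and 3997 CPM, and P14 control replicates 1, 2 and 4 held 4791, 5835 and 4858 CPM. All P7 and P14 control libraries were above all P1 control libraries, while P7 and P14 overlapped. The log2 fold change from P1 to P14 was 1.27 ± 0.38, or 1.55 relative to all genes, and was not called (edgeR adjusted p 0.108). It passed under 6 other settings, among them median-ratio size factors, library totals and DESeq2 (adjusted p 5.39e-05 to 0.0414 in those 6), and without P1 Casp2-depleted replicate 1 or 4 or P14 Casp2-depleted replicate 3 or 4 (adjusted p 0.0289 to 0.0438). From P1 to P7 it was 1.06 ± 0.36 (edgeR adjusted p 0.658, 0.85 relative to all genes), with values of −0.01 to 1.06 over the scalings, so that its direction was not fixed there. Between P7 and P14 it was 0.21 ± 0.35 (adjusted p 0.826, 0.96 relative to all genes), and with library totals it was called (1.07 ± 0.26, adjusted p 0.0146).

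In Casp2-depleted CMs Pde4d was at 2057, 2631, 1988 and 2642 CPM in P1 replicates 1 to 4, at 4048, 5059, 3092 and 2613 CPM in P7 replicates 1 to 4 and at 7543, 2332 and 2124 CPM in P14 replicates 2 to 4. P14 replicate 2 held over 3 times as much as the other 2 P14 libraries, which lay within the P1 range. The log2 fold change from P1 to P14 was 0.78 ± 0.34 (edgeR adjusted p 0.263, 1.19 relative to all genes), and it was called with library totals (1.18 ± 0.26, adjusted p 0.00200) and with the off-gene read share as a term (1.11 ± 0.28, adjusted p 0.0362). Over the 5 scalings it ran from 0.40 to 2.69. Between P7 and P14 it was 0.11 ± 0.35 (edgeR adjusted p 0.943, 0.72 relative to all genes), and its direction turned with the scaling (−0.34 to 2.24). From P1 to P7 it was 0.67 ± 0.32 (edgeR adjusted p 0.717, 0.60 relative to all genes).

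Pde4a (ENSMUSG00000032177, chr9:21073005-21124544, plus strand) encodes the remaining cAMP-specific PDE4 among the members and was at low CPM, from 30.8 to 122 over the 21 libraries. P7 controls held 66.1 to 122 CPM and P14 controls 40.9 to 78.5 CPM, and all 6 comparisons of days overlapped, with edgeR adjusted p of 0.803 or more and log2 fold changes from −0.52 to 0.78. From P7 to P14 in controls its direction turned with the scaling (−0.59 to 0.25).

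Pde7a (ENSMUSG00000069094, chr3:19277270-19365890, minus strand) and Pde8a (ENSMUSG00000025584, chr7:80862941-80984284, plus strand) encode cAMP-specific phosphodiesterases with high affinity. Pde7a in P7 control replicates 1 to 4 was at 105, 207, 90.0 and 80.7 CPM and in P14 control replicates 1, 2 and 4 at 34.5, 65.1 and 60.5 CPM. These groups did not overlap, though the lowest P7 library lay close above the highest P14 library, and the log2 fold change of −1.18 ± 0.89 was not called (edgeR adjusted p 0.489, −0.43 relative to all genes). In Casp2-depleted CMs Pde7a ranged over 3.50 to 85.2 CPM at P1, 57.5 to 273 CPM at P7 and 29.4 to 209 CPM at P14, with overlap throughout. The P1 Casp2-depleted library at 3.50 CPM was replicate 2.

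Pde8a ranged over 46.7 to 169 CPM in P1 controls, 43.8 to 108.4 CPM in P7 controls and 0 to 168 CPM in P14 controls. P14 control replicate 4, the shallowest of the 21 libraries, held 0 reads of Pde8a, where up to 3.36 unscaled CPM would have gone unseen. In Casp2-depleted CMs every P7 library (23.8 to 67.2 CPM) was below every P1 library (79.7 to 134 CPM), with a log2 fold change of −0.96 ± 0.86 that was not called (edgeR adjusted p 1.00, −1.04 relative to all genes). P14 libraries of that genotype spanned 32.7 to 179 CPM.

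Pde1c (ENSMUSG00000004347, chr6:56046784-56629472, minus strand) encodes a phosphodiesterase that is activated by calcium and calmodulin and hydrolyses both cAMP and cGMP. In controls it was at 663 to 947 CPM at P1, 745 to 1368 CPM at P7 and 658 to 886 CPM at P14, with overlap throughout. In Casp2-depleted CMs P7 replicates 1 to 4 held 1133, 1321, 629 and 711 CPM and P14 replicates 2 to 4 held 723, 148 and 124 CPM. P14 replicate 2 lay within the P7 range, whereas replicates 3 and 4 were the lowest of all 21 libraries. The log2 fold change was −1.52 ± 0.51, or −0.90 relative to all genes, and was not called (edgeR adjusted p 0.0794). With the replicate number as a block it was called (−1.66 ± 0.50, adjusted p 0.0376), as it was without P14 Casp2-depleted replicate 2 (−2.80 ± 0.64, adjusted p 0.00111).

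The same pair of libraries set the other Pde1c differences at P14. From P1 to P14 in Casp2-depleted CMs the log2 fold change was −1.43 ± 0.51 (edgeR adjusted p 0.131, −1.02 relative to all genes), and −2.71 ± 0.64, adjusted p 0.00236 without P14 Casp2-depleted replicate 2. Against P14 controls, the Casp2-depleted mean of 332 ± 339 CPM (SD, n = 3) stood beside 784 ± 116 CPM (SD, n = 3), with a log2 fold change of −1.24 ± 0.53 (edgeR adjusted p 0.404) with overlap through replicate 2, and it became −2.53 ± 0.64, adjusted p 0.0203 without that library. The interaction of genotype with the change from P7 to P14 was −1.13 ± 0.69 (edgeR adjusted p 0.647).

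Pde3a (ENSMUSG00000041741, chr6:141194888-141453174, plus strand) encodes a phosphodiesterase that hydrolyses cAMP and is inhibited by cGMP. P7 control replicates 1 to 4 held 468, 185, 128 and 122 CPM and P14 control replicates 1, 2 and 4 held 105, 73.3 and 23.5 CPM. P7 replicate 1 was the highest of all 21 libraries, and all P14 controls were below all P7 controls. The log2 fold change of −1.75 ± 0.81 was not called (edgeR adjusted p 0.338, −0.996 relative to all genes). In Casp2-depleted CMs P7 replicates 1 to 4 held 326, 79.0, 78.9 and 79.2 CPM and P14 replicates 2 to 4 held 66.1, 43.4 and 79.7 CPM, which overlapped (−1.16 ± 0.79, edgeR adjusted p 0.430, −0.55 relative to all genes). P1 libraries spanned 51.0 to 137 CPM in controls and 32.9 to 271 CPM in Casp2-depleted CMs.

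Pde5a (ENSMUSG00000053965, chr3:122522594-122653023, plus strand) encodes the cGMP-specific phosphodiesterase that sildenafil inhibits. P7 control replicates 1 to 4 held 42.7, 6.46, 26.1 and 53.8 CPM and P14 control replicates 1, 2 and 4 held 12.0, 65.8 and 241 CPM. The P14 libraries were spread from 12.0 to 241 CPM and overlapped P7, and the log2 fold change of 1.72 ± 0.97 was not called (edgeR adjusted p 0.350, 2.47 relative to all genes). In Casp2-depleted CMs it ranged over 22.4 to 196 CPM at P1, 4.74 to 80.2 CPM at P7 and 58.1 to 128 CPM at P14, and all comparisons overlapped.

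Between genotypes, the edgeR test called 0 members at each day. At P1, 0% of all genes were called, and 0 members and 1303 of 20368 genes had an unadjusted p below 0.05. The smallest adjusted p of a member was that of Pde4b (0.77 ± 0.52, edgeR adjusted p 0.796). At P7, 0% of all genes were called, and 0 members and 791 of 20368 genes had an unadjusted p below 0.05. For Adcy5, however, every Casp2-depleted library (93.3 to 137 CPM) was below every control library (143.5 to 192 CPM), at −0.51 ± 0.78 with an edgeR adjusted p of 1.00. At P14, 0.231% of all genes were called, and 1 member (Pde1c) and 2380 of 20368 genes had an unadjusted p below 0.05. Pde4b was at −0.95 ± 0.55 there (edgeR adjusted p 0.439) with overlap. Over all days, 0.0344% of all genes were called against 0 members, and 0 members and 1684 of 20368 genes had an unadjusted p below 0.05. The smallest adjusted p of a member was that of Pde1c (−0.41 ± 0.28, edgeR adjusted p 0.858). DESeq2 and limma-voom also called 0 members in these 4 comparisons. The libraries of the genotypes did not overlap for 0, 1 and 0 members at P1, P7 and P14, and for 3.4%, 1.64% and 5.15% of all genes. The SE of these log2 differences at a single day ran from 0.32 for Pde4d to 1.12 for Pde4a, and a value that missed the threshold does not show equal levels.

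The genotype-by-day interaction asked whether the change between days differed between genotypes, and the edgeR test again called 0 members. For P7 over P1, 0% of all genes were called, and 0 members and 1298 of 20368 genes had an unadjusted p below 0.05. Among members the smallest adjusted p was at Pde4b (−1.15 ± 0.70, edgeR adjusted p 0.866). For P14 over P7, 0.0344% of all genes were called, and 0 members and 1879 of 20368 genes had an unadjusted p below 0.05. Among members the smallest adjusted p was at Pde1c. DESeq2 and limma-voom called 0 members in both.

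Cardiomyocyte markers were also lower at P14 than at P7. The 12 cardiomyocyte markers summed to 72034, 156336, 104270.1 and 86118 CPM in P7 control replicates 1 to 4 and to 42534, 9747 and 18685 CPM in P14 control replicates 1, 2 and 4. In Casp2-depleted CMs they summed to 77502, 89339, 80519 and 48801 CPM at P7 and 23239.6, 10985 and 12260.4 CPM at P14. At P1 they summed to 17566, 55511 and 56415 CPM in controls and 40937, 26241, 25599.5 and 109934 CPM in Casp2-depleted CMs. Every P14 library was below every P7 library of its genotype, and 10 of 12 markers were called from P7 to P14 in controls (list median −2.40), 9 of 12 in Casp2-depleted CMs (−2.46) and 9 of 12 from P1 to P14 in Casp2-depleted CMs (−2.70). In these pools fewer CM nuclei and less RNA of a gene per nucleus cannot be told apart, and the part of the markers, of depth and of the off-gene read share in the lower Pde4b and Adcy6 was not tested. Of the other cell types, 1 of the tested mural markers was called in each of the Casp2-depleted comparisons with P14, and 0 markers of the remaining lists were called by edgeR in the 3 comparisons that called members.

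Related enzymes outside the 10 members were not called by edgeR in any of the 12 comparisons. Of 16 other phosphodiesterases 15 were tested and 0 called, with Pde7b (mean 366 CPM over 21 libraries) and Pde10a (184 CPM) the most abundant. All 8 other adenylyl cyclases were tested and 0 called, with Adcy8 (161 CPM) and Adcy10 (88.4 CPM) first, and of 12 guanylyl cyclases and natriuretic peptide receptors 11 were tested and 0 called, with Gucy1a2 (141 CPM) and Gucy2g (29.8 CPM) first. At an unadjusted p below 0.05 the 3 lists had 0 to 3, 0 to 1 and 0 to 3 genes in a comparison, DESeq2 called at most 1, 0 and 0, and limma-voom at most 1 of each list. From P7 to P14 in controls the median log2 fold change of these 3 lists was 0.58, 0.28 and −0.88, beside −0.75 for all genes and −0.85 for the members. In Casp2-depleted CMs it was −0.39, 0.16 and 0.72 for the lists, −0.61 for all genes and −0.86 for the members.

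Upstream of the cyclases, 22 of 26 receptor and G protein genes were tested. For these and the genes described next, the value relative to the median of all genes stands in square brackets after the log2 fold change. In controls 1 fell from P7 to P14, Rgs6, a regulator that turns off inhibitory G proteins (log2 fold change −1.82 ± 0.55 [−1.07], edgeR adjusted p 0.0491). In Casp2-depleted CMs 2 fell: Adrb1, the β1-adrenergic receptor (−5.39 ± 1.12 [−4.78], adjusted p 0.000215), and Gnas, which encodes the stimulatory G protein α subunit (−3.55 ± 0.72 [−2.94], adjusted p 0.000136). Adrb1 stood at 242, 138, 139 and 65.2 CPM in P7 Casp2-depleted replicates 1 to 4 and at 8.44, 1.89 and 0 CPM in P14 replicates 2 to 4. Gnas stood at 745, 623, 265 and 198 CPM in these P7 libraries and at 38.0, 79.2 and 0 CPM in these P14 libraries. P14 Casp2-depleted replicate 4 held 0 reads of both genes. In controls neither was called from P7 to P14. Gnas, at 360.1, 589.6, 434 and 468 CPM in P7 replicates 1 to 4 and 171, 74.0 and 70.4 CPM in P14 replicates 1, 2 and 4, had no overlap (−2.14 ± 0.67 [−1.39], edgeR adjusted p 0.0633). Adrb1, at 166, 212, 228 and 91.9 CPM in the same P7 libraries and 141, 15.7 and 1.51 CPM at P14, overlapped through P14 replicate 1 (−1.72 ± 0.92 [−0.98], edgeR adjusted p 0.349). The edgeR interaction of genotype with day called neither gene. The same 2 genes fell from P1 to P14 in Casp2-depleted CMs (−5.13 ± 1.11 [−4.73] and −2.97 ± 0.70 [−2.56]). Counts for this list from P7 to P14 in controls, P7 to P14 in Casp2-depleted CMs and P1 to P14 in Casp2-depleted CMs were 2, 6 and 4 with DESeq2, 0, 3 and 3 with limma-voom after TMM, and 0, 4 and 3 after quantile normalization.

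Downstream of cAMP, 33 of 36 genes for PKA subunits, anchoring proteins and other effectors were tested, and 4 fell from P7 to P14 in both genotypes. They were Prkar1a, a regulatory subunit of PKA (−7.00 ± 1.42 [−6.25] in controls and −7.86 ± 1.51 [−7.25] in Casp2-depleted CMs), the anchoring proteins Akap8 (−2.71 ± 0.70 [−1.96] and −2.27 ± 0.68 [−1.66]) and Akap9 (−3.45 ± 0.70 [−2.70] and −3.45 ± 0.70 [−2.84]), and the coactivator Crebbp (−2.61 ± 0.68 [−1.86] and −2.50 ± 0.68 [−1.89]). Prkar1a was at 189, 270.0, 119 and 94.2 CPM in P7 control replicates 1 to 4 and at 0, 3.74 and 0 CPM in P14 control replicates 1, 2 and 4. P14 Casp2-depleted replicates 2 to 4 held 1.41, 0 and 0 CPM, so its fitted values rest on libraries at or near 0 reads. From P1 to P14 in Casp2-depleted CMs 2 of these genes fell, Prkar1a and Akap9. Over P7 to P14 in controls, P7 to P14 in Casp2-depleted CMs and P1 to P14 in Casp2-depleted CMs, DESeq2 called 5, 4 and 4 genes of this list, limma-voom with TMM 4, 3 and 2, and with quantile normalization 2, 1 and 2. Of 7 genes for the cGMP-dependent kinase and its substrates, 1 fell from P7 to P14, Ppp1r12a, the targeting subunit of myosin phosphatase (−2.05 ± 0.49 [−1.30] in controls, edgeR adjusted p 0.00378, and −3.08 ± 0.51 [−2.47] in Casp2-depleted CMs, adjusted p 6.47e-07), and it also fell from P1 to P14 in Casp2-depleted CMs (−2.12 ± 0.49 [−1.71]). Of these 7 genes, in the same order of comparisons, DESeq2 called 1, 1 and 1, limma-voom with TMM 0, 0 and 0, and with quantile normalization 0, 0 and 0.

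Among 12 PKA substrates of excitation-contraction coupling 11 were tested. From P1 to P7 in controls 1 rose, Mybpc3, a myosin-binding sarcomere protein (2.21 ± 0.38 [2.00], edgeR adjusted p 2.47e-05), where DESeq2 and both limma-voom fits called 0 genes of the list. From P7 to P14 in controls 4 fell: Mybpc3 (−3.08 ± 0.39 [−2.33]), Tnni3, cardiac troponin I (−2.87 ± 0.54 [−2.12]), the L-type calcium channel gene Cacna1c (−1.42 ± 0.30 [−0.67]) and the calcium release channel gene Ryr2 (−1.35 ± 0.28 [−0.60]). Cacna1c and Ryr2 were less than 1 below the median of all genes. The Ryr2 groups overlapped, with 12108, 3288 and 5407 CPM in P14 control replicates 1, 2 and 4 against 12058, 29439, 13981 and 14994 CPM in P7 control replicates 1 to 4. In Casp2-depleted CMs 7 fell over that interval, the same 4 with Pln, Cacnb2 and Atp2a2, and 6 fell from P1 to P14, with Pln not called. In these 3 comparisons with P14 (P7 to P14 in controls, then P7 to P14 and P1 to P14 in Casp2-depleted CMs), DESeq2 called 2, 5 and 6 genes of the list, limma-voom with TMM 1, 0 and 0, and limma-voom with quantile normalization 1, 0 and 0. Between genotypes and in the interactions edgeR called 0 genes of the 7 lists, although 0 to 7 genes of a list had an unadjusted p below 0.05 in a comparison, and DESeq2 and limma-voom each called at most 1 gene of a list.

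Patterns across the 21 libraries were compared by Pearson r of log2 CPM with 10511 genes that averaged at least 20 reads, as a description of libraries that share day, depth and composition. The gene most like Pde4b was Clasp1 (r = 0.935), those most like Adcy6 were Bri3bp (0.941) and Thoc2 (0.925), and those most like Adcy5 were Bclaf1 (0.956) and Ddx17 (0.949). Pde1c was most like Sorbs2 (0.927) and Stau2 (0.913), Pde3a like Mlip (0.899), and Pde4d like Fhl2 (0.873) and Sbk1 (0.857). Pde8a was most like Clcn5 (0.87) and Sugp2 (0.859), and Pde5a like Gm44596 (0.81) and Fbxl2 (0.782). Pde7a was most like Ep300 (0.787) and Nfic (0.781), and Pde4a like Kptn (0.69) and D830005E20Rik (0.687). Among the members themselves, r was highest between Adcy5 and Adcy6 (0.886), Pde4b and Adcy5 (0.836) and Pde3a and Pde4b (0.833). Pde5a had r below 0 with every other member except Pde4a (0.034), and lowest with Pde4b (−0.449) and Pde3a (−0.436).

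**Figure D4:**
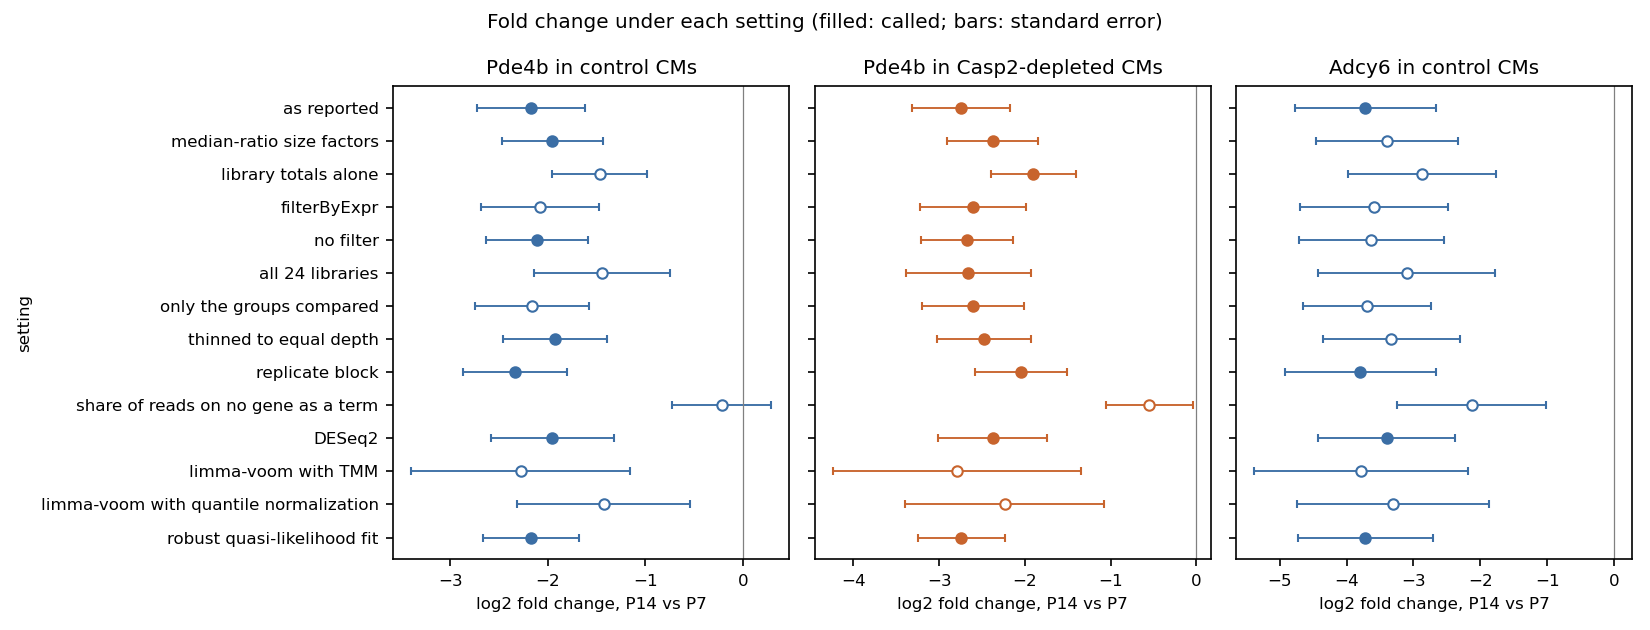
Log2 fold change from P7 to P14 (horizontal axis) with error bars of 1 SE for Pde4b in control CMs, Pde4b in Casp2-depleted CMs and Adcy6 in control CMs, under each processing setting (vertical axis), with filled points where the gene was called. Pde4b lay at −0.22 in controls and −0.55 in Casp2-depleted CMs with the off-gene read share as a term, against −2.17 and −2.75 in the planned fit. That share was higher in every P14 library than in every P7 library of its genotype, so this setting does not tell day and share apart.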

How the data were processed

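The deposited counts are reads per gene that the authors counted over whole genes, exons and introns together; the submitters' processing notes name FastQC 0.11.8, cutadapt 4.0, STAR 2.6.1e, HTSeq 2.0.3 and GRCm39. The strand setting of the counting and any use of molecular identifiers were not given in the sources used here. Counts on no gene (34.3% to 76.1% of those in a library) stayed out of library sizes. GENCODE vM39 named 56236 of 56923 identifiers, holding 99.5% of reads. Left out, because the study had done so for low quality, were replicate 1 of P1 controls, replicate 3 of P14 controls and replicate 1 of P14 Casp2-depleted CMs. Genes were kept if their reads summed to 10 or more and 3 or more libraries had any, and were tested with edgeR 4.0.16 in R 4.3.3 (TMM, quasi-likelihood F-test with default, non-robust settings, 6 day-by-genotype groups, 15 residual degrees of freedom, biological coefficient of variation 1.50), and the script was tested on simulated data. Relative changes are log2 fold changes minus the median over all genes. Alternatives were median-ratio size factors, library totals alone, 2 other filters on low counts, all 24 libraries, only the groups compared, thinning to 891817 reads, a block for the replicate number, the off-gene read share as a term, DESeq2 1.42.0, limma 3.58.1 (voom with TMM or quantile normalization), adjusted p alone, and each of 21 libraries left out. A robust quasi-likelihood fit was added after seeing the data, when it and other settings of the fit had been tried to learn why counts of calls differed from those of an earlier analysis. File names mark the replicate number as a batch. In a check of that pairing, control and Casp2-depleted libraries of the same number had deviations from their group means that correlated with r of −0.059 to 0.0981 at P1 (3 pairs), 0.0323 to 0.185 at P7 (4 pairs) and 0.0174 to 0.0206 at P14 (2 pairs), against −0.14 to 0.0993, −0.137 to 0.0864 and −0.0249 to 0.00881 for pairs of different numbers. Genes named are all members; from each pathway list, genes called between any 2 groups and the 2 most abundant; from each marker list, the most abundant gene and those at 0 reads; and per member the 2 genes with the highest r. Some genes that these rules name are not reported here. Members and lists were chosen with earlier results of these data known. Tables and figures were made with Python 3.11.15, numpy 2.4.6, pandas 2.3.3 and matplotlib 3.10.9.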

Additional observations from a re-analysis of the deposited data

Results flagged for a closer look

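In groups of 4 libraries, P7 Casp2-depleted replicate 1 stood far from the other 3 for 3 members, among 30 groups of values tested. These groups share libraries and are not independent, so the number marked cannot be set against a chance rate. P7 Casp2-depleted replicate 1 was also the deepest of the 21 libraries (2924097 reads) and had the lowest off-gene read share (34.3%). It held 326 CPM of Pde3a against 78.9 to 79.2 CPM in the others, 88.5 CPM of Pde4a against 43.5 to 49.1 CPM, and 2072 CPM of Pde4b against 433 to 508 CPM. P7 control replicate 1, of the same batch by file name, was also the highest of its group for these 3 members, with 468, 185, 128 and 122 CPM of Pde3a, 122, 66.1, 93.3 and 80.7 CPM of Pde4a and 2026, 1260.3, 773 and 487 CPM of Pde4b in P7 control replicates 1 to 4. The 2 replicates 1 at P7 also had the highest correlation of deviations among the pairs checked (r = 0.185).

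The 3 libraries left out of the comparisons lay outside the range of the kept libraries of their group for most members. Values here are CPM scaled by TMM factors from a run over all 24 libraries, so those of kept libraries differ somewhat from the values above. There were 4 members above and 3 below in P1 control replicate 1, 7 above and 2 below in P14 control replicate 3, and 4 above and 5 below in P14 Casp2-depleted replicate 1. P1 control replicate 1 was above in Pde3a at 299 CPM (52.5 to 139), Pde4b at 1786 CPM (222 to 823), Adcy5 at 188 CPM (40.2 to 127) and Adcy6 at 120.2 CPM (1.24 to 112), and below in Pde5a at 17.5 CPM (23.5 to 141), Pde7a at 53.8 CPM (66.7 to 135) and Pde8a at 12.6 CPM (47.4 to 174) (kept libraries in parentheses). P14 control replicate 3, with 2049 genes read, was above in Pde1c at 1286 CPM (698 to 899), Pde3a at 179.5 CPM (24.9 to 107), Pde4b at 869 CPM (138 to 409), Pde4d at 9361 CPM (4864 to 6040.2), Pde5a at 378 CPM (12.2 to 256), Adcy5 at 88.8 CPM (25.5 to 38.6) and Adcy6 at 27.7 CPM (3.10 to 13.6), and below in Pde4a at 0 CPM (41.5 to 81.3) and Pde7a at 0 CPM (35.1 to 67.4). P14 Casp2-depleted replicate 1, with 4285 genes read, was above in Pde1c at 988 CPM (132 to 749.9), Pde3a at 232 CPM (45.8 to 85.4), Adcy5 at 184 CPM (4.90 to 58.4) and Adcy6 at 205 CPM (0 to 53.2), and below in Pde4a at 0 CPM (36.4 to 94.8), Pde4d at 1499 CPM (2275 to 7822), Pde5a at 0 CPM (62.3 to 136), Pde7a at 0 CPM (31.5 to 217) and Pde8a at 0.969 CPM (34.5 to 192).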

How the results depend on the processing

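From P7 to P14 in controls, 2 members were called in the planned fit, 1 with median-ratio size factors, library totals, no filter or thinning, 0 with filterByExpr, all 24 libraries, only the groups compared, the off-gene read share as a term or either limma-voom, and 3 with DESeq2, while leaving out 1 library gave 0 to 2. From P1 to P14 in controls, 0 became 1 with median-ratio size factors, library totals, no filter, thinning, the share term and DESeq2, and leaving out 1 library gave 0 to 1. In Casp2-depleted CMs, from P7 to P14, 1 became 2 with the replicate block and with a robust quasi-likelihood fit chosen after seeing the data, and 0 with the share term and both limma-voom fits, and leaving out 1 library gave 0 to 3. From P1 to P14 in Casp2-depleted CMs, 1 became 2 with library totals and DESeq2 and 0 with all 24 libraries and both limma-voom fits, the share term called Pde4d in place of Pde4b, and leaving out 1 library gave 1 to 3. Between genotypes at P14, 0 became 1 in 1 of 21 fits that left out a library. Other counts of members did not move, and no called value changed sign. The replicate block (pairing by number) called Pde1c from P7 to P14 in Casp2-depleted CMs and changed no other call of a member. Over all settings, genes called ran from 32 to 1150 (394 in the planned fit), 4 to 521 (74), 127 to 1171 (613) and 85 to 1188 (442) in these 4 comparisons of days, 0 to 93 (10) and 0 to 46 (5) from P1 to P7 in controls and Casp2-depleted CMs, 0 to 105 (0), 0 to 25 (0) and 0 to 662 (47) between genotypes at P1, P7 and P14, 0 to 214 (7) over all days, and 0 to 66 (0) and 2 to 246 (7) for the interactions. Only the groups compared gives no value over all days. The cause was not tested. At 891817 to 2924097 reads a library, members with a mean under 100 CPM had edgeR standard errors near 1 between single groups. Adcy5, at a mean of 105 CPM, had 0.87 from P1 to P7 in controls. What set the size of these errors was not tested.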
